A study of Mus musculus with 6 samples.

Results

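The proteasome genes were read from RNAseq of D2A1 cells, a mouse mammary tumor cell line, as every gene whose symbol starts with Psma, Psmb, Psmc, Psmd or Psme followed by a number. The immunoproteasome genes Psmb8, Psmb9 and Psmb10 and the names marked as pseudogenes were left out of this set and are given beside it. Of the 54146 genes in the expression table, 42 met this rule. One of them, Psmc3ip, met it by its letters only: it encodes a recombination protein and no subunit, and it stood at 9.92 ± 2.40 TPM with rGST and 10.7 ± 0.991 TPM with rSLURP1 (SD, n = 3; adjusted p = 0.541 in limma). The remaining 41 encode the 20S core (16 genes), the 19S regulatory particle (17 genes), 19S assembly chaperones (3 genes) and the PA28 and PA200 caps (5 genes). TPM is a unit that corrects the reads of a gene for transcript length and brings every library to the same sum.

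The cells were grown as spheroids in Matrigel, in medium with serum, and received recombinant SLURP1 (rSLURP1) or, as the control protein, recombinant GST (rGST), both at 50 nM. Each treatment had 3 libraries, the labels name no genetic change (their genotype field holds Control or Recombinant-Slurp1, the protein added), and the study's methods give harvest on day 5. All libraries came from 1 cell line, and the labels do not say that they came from separate cultures, so p-values measure the spread between these libraries, which may be technical. The labels name a TruSeq mRNA kit, whereas the study's methods describe Smart-seq2, and the values do not settle which was used.

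The proteasome is the protease that degrades most ubiquitin-tagged proteins of the cytosol and nucleus. Its barrel, the 20S core, has outer rings of alpha subunits that gate the entrance and inner rings of beta subunits, of which Psmb5, Psmb6 and Psmb7 carry the active sites. The 19S particle caps the barrel, binds ubiquitin chains, removes them and unfolds the substrate with a ring of ATPases, whereas the PA28 and PA200 caps open the barrel without ATP. Cells exposed to interferon-gamma exchange the active subunits for Psmb8, Psmb9 and Psmb10 and make more PA28 alpha and beta (Psme1 and Psme2), which favors peptides for MHC class I. When proteasome activity is short, the transcription factor NRF1 (Nfe2l1) raises the transcription of the subunits.

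The 12301 genes that reached 1 TPM in at least 3 libraries entered limma as log2(TPM + 1), and p-values were adjusted over all of them by Benjamini-Hochberg, with a threshold of 0.05. The smallest two-sided p-value of an exact permutation test on 1 gene would be 0.1 with this number of libraries. Expression as deposited was lower with rSLURP1 over much of the transcriptome. The median log2 fold change over the tested genes was -0.33 as deposited, -0.00 after median-ratio scaling, which divides a library by the median of its ratios to the average library, and 0.02 after quantile normalization. As deposited, 58.5% of tested genes were called lower and 8.66% higher, against 25.2% lower and 26.0% higher with median-ratio scaling, and 8.22% changed at least 2-fold as deposited. Read depth is not kept in TPM and is unknown. Krt18, an epithelial keratin, stood at 191.05 to 199.39 TPM in the 6 libraries, a log2 fold change of 0.02 as deposited (adjusted p = 0.712) and 0.37 with median-ratio scaling. The keratin gene Krt8 was low, at 1.40 to 1.66 TPM with rGST and 0.51 to 0.81 TPM with rSLURP1 (-0.60, adjusted p = 0.0097; -0.41 with median-ratio scaling, adjusted p = 0.055). The mesenchymal filament gene Vim fell from 1183.80 to 1340.28 TPM with rGST to 640.27 to 698.53 TPM with rSLURP1 (-0.92, adjusted p = 9.5e-06, and lower under each scaling), while Epcam, Krt5 and Krt14 were listed at 0 in all of them and Cdh1 reached no more than 0.07 TPM. Of 6 fibroblast markers, 5 were tested and all 5 fell, under each scaling too. Their summed level went from 1007 to 1138 TPM with rGST to 75.2 to 85.1 TPM with rSLURP1. The 6 immune markers summed to at most 0.10 TPM and the 3 endothelial markers to at most 0.31 TPM. The part of these marker shifts in the proteasome results was not tested, and fewer cells of a type cannot be told apart from less RNA per cell in bulk RNA.

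Of the 41 proteasome genes, 39 were tested. The testis subunit gene Psma8 was listed at 0 in all 6 libraries, and Psmb11, the catalytic subunit of the thymus, reached no more than 0.23 TPM. The 4 pseudogene names left out reached no more than 0.37 TPM. Among the 39, mean levels ran from 21.8 to 527 TPM with rGST, a range of 24.1-fold. Psmb4, a structural beta subunit, was the highest with 527 ± 16.9 TPM in rGST and 435 ± 23.4 TPM in rSLURP1 libraries, followed under both treatments by Psma7. The 7 alpha genes lay within 5.43-fold of each other with rGST, the 7 beta genes within 3.64-fold and the 6 ATPase genes within 2.01-fold. Subunits of the 20S core were more abundant than those of the 19S particle, with median levels of 234 against 141 TPM per gene, and the 3 assembly chaperones were lower still, at 30.3 to 66.8 TPM.

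**Figure D1:**
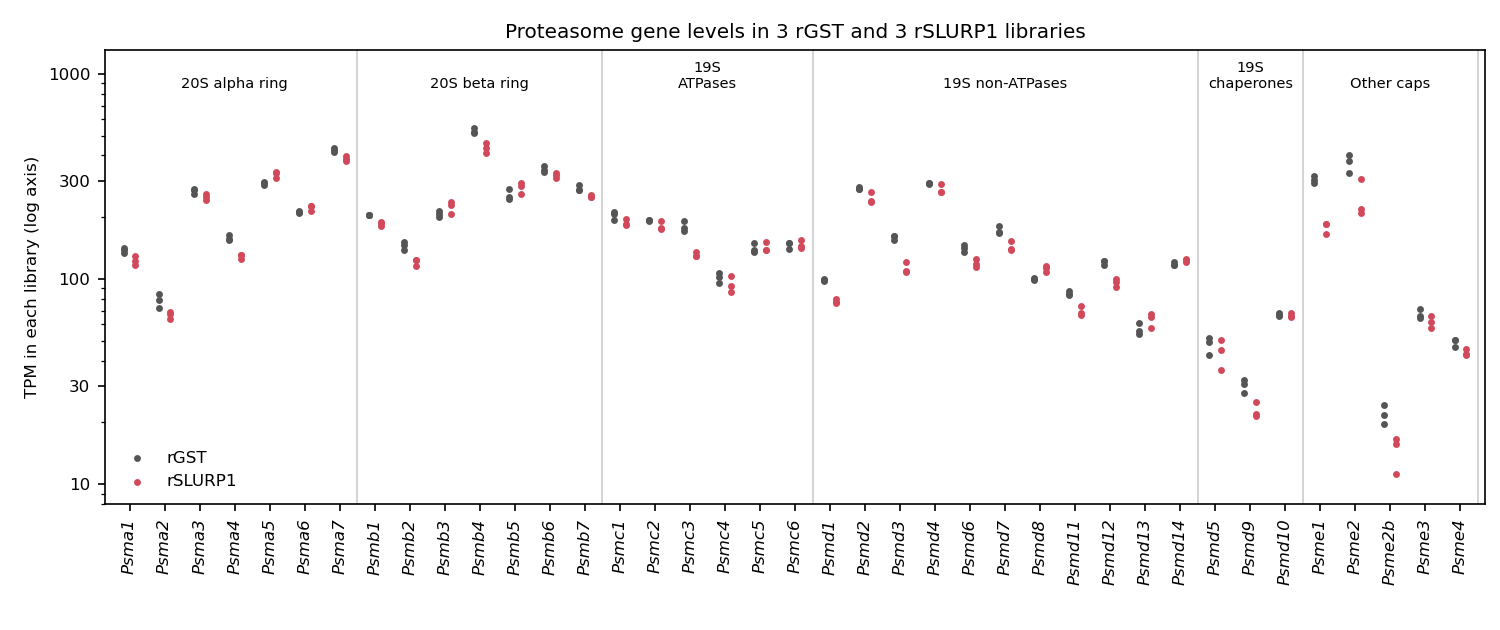
TPM on a log axis for the 39 tested proteasome genes, ordered by their place in the complex, with 1 point per library (3 rGST in gray, 3 rSLURP1 in red). The points of the 2 treatments lie close together for most genes, and the widest gaps are those of Psme1, Psme2 and Psme2b in the panel of other caps.

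As deposited, 21 of the 39 proteasome genes were lower with rSLURP1, 2 were higher and 16 did not pass the test, so that 53.8% were called lower beside 58.5% of all tested genes. The shifts were small. The median log2 fold change of the 39 was -0.14, beside -0.33 for all tested genes, and 32 of the 39 lay above the median of all genes. None changed at least 2-fold in limma, also when a p-value of 0.05 without adjustment was used (0 genes). In 24 genes all rSLURP1 libraries were below all rGST libraries (61.7% of all tested genes), in 3 they were above (9.75% of all tested genes) and in 12 the treatments overlapped. Together the 39 tested genes held 0.708% ± 0.013 of all TPM in rGST and 0.632% ± 0.017 in rSLURP1 libraries (SD, n = 3).

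The direction depended on the scale. With median-ratio scaling, which sets the median of all genes near 0, 2 of the 39 were lower (Psmd3 and Psme1), 23 were higher and 14 did not pass the test, 5.13% lower and 59.0% higher beside 25.2% and 26.0% of all tested genes. With quantile normalization 5 were lower and 13 higher, beside 23.6% lower and 25.3% higher over all tested genes. After the values were corrected for transcript length and GC content 6 were lower and 21 higher, beside 21.9% lower and 27.0% higher. Most of these genes were lower in TPM as deposited and at the same time above the median gene in fold change.

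**Figure D2:**
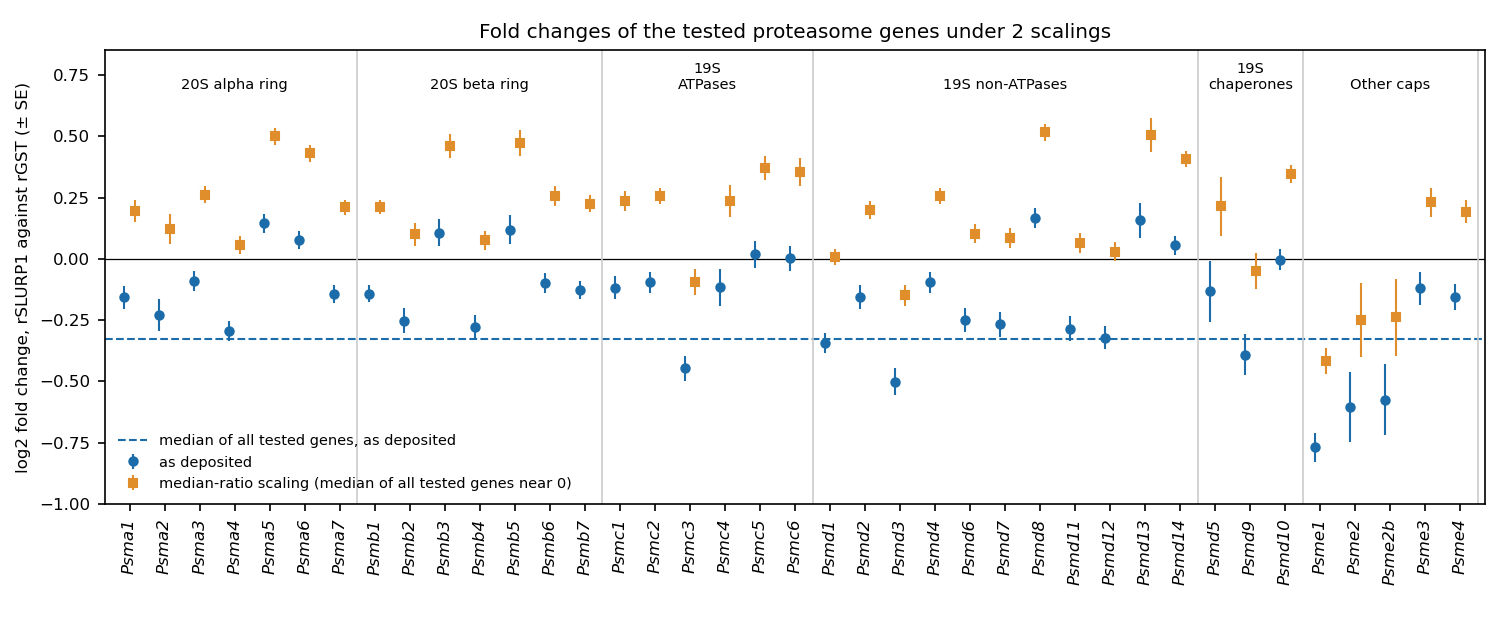
Log2 fold change of rSLURP1 against rGST on log2(TPM + 1), with its standard error, for the 39 tested proteasome genes in the order of the complex, as deposited (blue) and with median-ratio scaling (orange); the dashed line is the median of all tested genes as deposited, -0.33. Most genes lie between that line and 0 as deposited and above 0 with median-ratio scaling, and Psme1 (-0.77), Psme2 (-0.60) and Psme2b (-0.57) lie lowest as deposited and stay below 0 after scaling.

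In the 20S core, 8 of 14 tested genes were lower as deposited (57.1%, beside 58.5% of all tested genes), 1 was higher and 5 did not pass the test. All 14 lay above the median of all genes. With median-ratio scaling 0 were lower and 10 higher (71.4%), beside 25.2% and 26.0% of all tested genes. The alpha and beta rings had similar medians, -0.14 and -0.13, and their mean log2 levels kept the same distance in each library: the alpha minus beta difference went from -0.38 ± 0.0072 with rGST to -0.39 ± 0.018 with rSLURP1, with overlapping libraries.

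Among the alpha genes, 4 of 7 were lower as deposited (57.1%, beside 58.5% of all tested genes), 1 was higher and 2 did not pass the test. Psma5 (chromosome 3, 108256926 to 108279974, GRCm38) was higher in every rSLURP1 library. It stood at 295.90, 287.00 and 295.02 TPM in rGST replicates 1 to 3 and at 310.71, 329.72 and 331.45 TPM in rSLURP1 replicates 1 to 3. The log2 fold change was 0.15 (SE 0.039, adjusted p = 0.011 in limma), 0.50 with median-ratio scaling, 0.31 by quantile normalization and 0.35 when length and GC were corrected for, each past the threshold. Psma4, a subunit whose tail helps to close the gate of the barrel, had the lowest fold change of the ring: 155.68, 163.91 and 157.23 TPM with rGST against 131.13, 131.38 and 125.55 TPM with rSLURP1. Its libraries did not overlap, and the log2 fold change was -0.30 as deposited (SE 0.040, adjusted p = 4.4e-04) but 0.06 with median-ratio scaling (adjusted p = 0.231). Psma3, another subunit of the ring, had a log2 fold change of -0.09 (SE 0.041, adjusted p = 0.083), with overlapping libraries (258.70 to 274.68 TPM against 243.85 to 260.43 TPM), and of 0.26 with median-ratio scaling (adjusted p = 6.6e-04).

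The catalytic beta subunit genes shifted little. Psmb5, the chymotrypsin-like subunit and the target of bortezomib, stood at 246.12, 250.18 and 273.73 TPM with rGST and at 259.36, 292.16 and 284.82 TPM with rSLURP1. The treatments overlapped, and the log2 fold change of 0.12 did not pass the test (SE 0.060, 95% interval -0.02 to 0.26, adjusted p = 0.116). It was 0.47 with median-ratio scaling and passed there (adjusted p = 3.1e-04). Its rank among the 39 genes by mean TPM went from 11 to 5. Psmb6, the caspase-like subunit, stood at 330.72 to 356.46 TPM with rGST and 310.17 to 327.00 TPM with rSLURP1, without overlap (log2 fold change -0.10, adjusted p = 0.068; 0.26 with median-ratio scaling). Psmb7, the trypsin-like subunit, was lower at 249.57 to 257.11 TPM against 269.84 to 286.73 TPM (-0.13, SE 0.038, adjusted p = 0.018; 0.23 with median-ratio scaling). Without rGST replicate 3 or rSLURP1 replicate 3 the Psmb7 call was lost (adjusted p = 0.057 and 0.055), whereas Psmb5 passed without rGST replicate 3 (0.17, adjusted p = 0.046) or rSLURP1 replicate 1 (0.17, adjusted p = 0.034). The summed level of these 3 genes was 875 ± 37.1 TPM with rGST and 851 ± 16.9 TPM with rSLURP1, and the libraries overlapped. Psmb4 had the lowest fold change of the ring, -0.28 (SE 0.048, adjusted p = 0.0015), from 512.59 to 545.64 TPM down to 411.79 to 458.52 TPM. It was -0.18 with quantile normalization and 0.08 with median-ratio scaling, which did not pass the test (adjusted p = 0.146).

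In the 19S particle, 8 of 17 genes were lower as deposited (47.1%, beside 58.5% of all tested genes), 1 was higher and 8 did not pass the test, with a median of -0.12. With median-ratio scaling 1 was lower and 10 were higher (58.8%), beside 25.2% and 26.0% of all tested genes. Of the 6 ATPase genes Psmc3 alone was called as deposited, whereas 7 of the 11 non-ATPase genes were lower and 1 was higher, with medians of -0.11 and -0.25. The 63.6% lower among non-ATPase genes stands beside 58.5% of all tested genes. With median-ratio scaling 0 ATPase genes were lower and 5 higher, and 1 non-ATPase gene was lower and 5 were higher. Over all tested genes 25.2% were lower and 26.0% higher on that scale. The difference between ATPase and non-ATPase genes was not tested. The base of the particle, which holds the ATPases together with Psmd1, Psmd2 and Psmd4, and the lid differed by 0.58 ± 0.014 in mean log2 level with rGST and by 0.59 ± 0.0097 with rSLURP1, with overlapping libraries.

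The ATPase gene Psmc3 stood at 170.84, 177.96 and 190.87 TPM with rGST and at 136.06, 128.75 and 129.91 TPM with rSLURP1. The libraries were apart, with a log2 fold change of -0.45 (SE 0.050, adjusted p = 1.7e-04), -0.23 with quantile normalization and -0.09 with median-ratio scaling, which did not pass the test (adjusted p = 0.177). Psmc5 had the highest value of the ATPases, 0.02 (SE 0.056, adjusted p = 0.793; 0.37 with median-ratio scaling, adjusted p = 5.8e-04), at 134.79 to 149.66 TPM against 138.17 to 150.90 TPM.

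Of the subunits that receive the substrate, Psmd1, a large scaffold of the base, was lower in every rSLURP1 library: 99.03, 100.38 and 97.67 TPM against 77.00, 80.05 and 76.36 TPM. Its log2 fold change was -0.34 (SE 0.040, adjusted p = 1.9e-04), which is close to the median of all genes, and 0.01 with median-ratio scaling. Psmd2, the companion scaffold, was at 273.06 to 279.09 TPM with rGST and 238.42 to 265.70 TPM with rSLURP1 (-0.15, SE 0.048, adjusted p = 0.023; 0.20 with median-ratio scaling). The ubiquitin receptor gene Psmd4 did not pass the test, at 290.05 to 294.04 TPM against 265.12 to 289.50 TPM (-0.10, adjusted p = 0.081; 0.26 with median-ratio scaling). Psmd14, the deubiquitinase that cuts chains off the substrate, overlapped between treatments at 116.91 to 121.15 TPM and 120.54 to 125.04 TPM (0.05, SE 0.038, adjusted p = 0.232). It was higher under the other scalings, at 0.41 by median ratio, 0.29 by quantile normalization and 0.30 when length and GC were corrected for.

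The lid held both the lowest and the highest fold change of the 19S particle. Psmd3 (chromosome 11, 98682554 to 98695979) stood at 161.83, 161.78 and 155.62 TPM with rGST and at 107.74, 121.53 and 108.95 TPM with rSLURP1. It fell by 0.50 on the log2 scale (SE 0.054, adjusted p = 1.4e-04) and was the only 19S gene still lower with median-ratio scaling (-0.15, adjusted p = 0.022). Psmd8 (chromosome 7, 29174188 to 29180701) went the other way, from 99.91, 98.32 and 100.99 TPM to 112.81, 115.13 and 108.05 TPM. It rose by 0.17 (SE 0.041, adjusted p = 0.0081), and by 0.52 with median-ratio scaling, 0.41 by quantile normalization and 0.48 when length and GC were corrected for. Among the chaperones that assemble the base, Psmd9 was lower, at 27.95 to 32.30 TPM against 21.49 to 25.26 TPM (-0.39, SE 0.083, adjusted p = 0.0041; -0.05 with median-ratio scaling, adjusted p = 0.603). Psmd10, known as gankyrin, was at 65.97 to 68.03 TPM and 65.33 to 68.41 TPM (-0.00, adjusted p = 0.946; 0.35 with median-ratio scaling, past the threshold).

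The balance between core and 19S genes was compared within each library, where the scale of a library hardly matters. The mean log2(TPM + 1) of the 14 core genes minus that of the 17 19S genes was 0.682, 0.682 and 0.699 in rGST replicates 1 to 3 and 0.736, 0.722 and 0.773 in rSLURP1 replicates 1 to 3. The treatments did not overlap, but the difference was 0.055, about as large as the range of the rSLURP1 libraries. In summed TPM the ratio of core to 19S was 1.36 ± 0.016 with rGST and 1.43 ± 0.023 with rSLURP1. The difference was -0.03, in the other direction, once values were corrected for transcript length and GC content. Core transcripts were shorter, with a median of 1220 bases against 1983 bases for the 19S genes, and over all tested genes the median log2 fold change went from 0.16 for transcripts under 500 bases to -0.42 for those of 5000 bases or more. The part of transcript length in the fold changes as deposited was not tested beyond this correction.

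**Figure D3:**
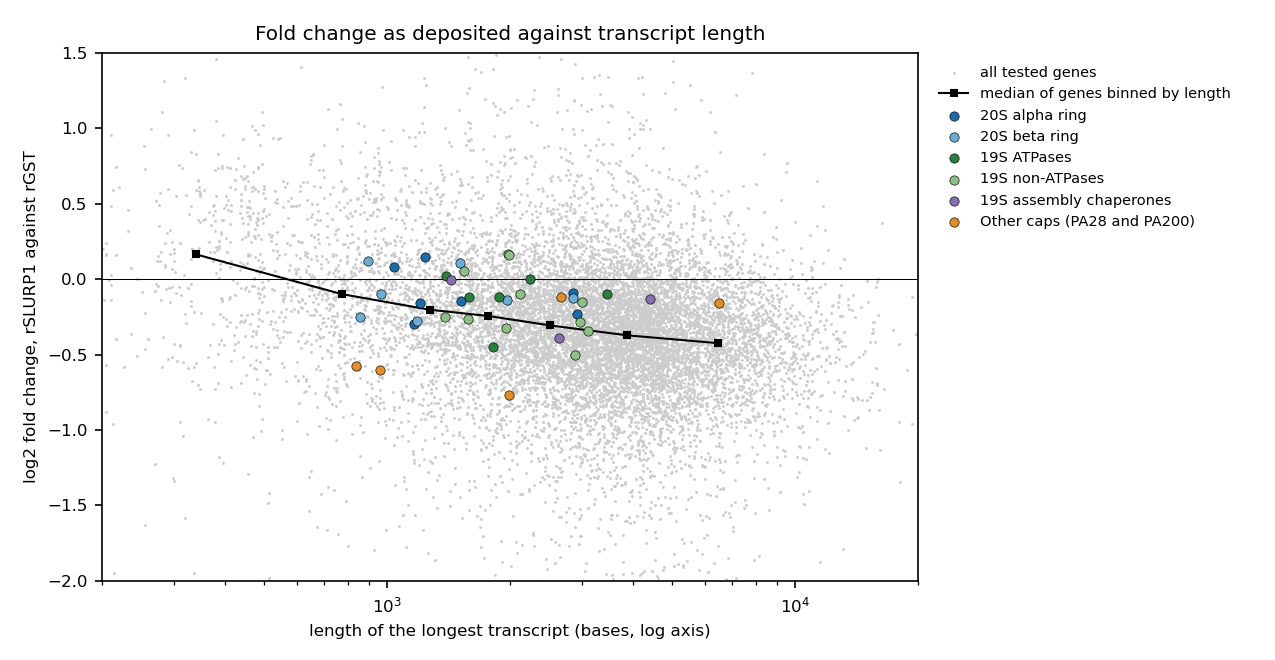
Log2 fold change as deposited against the length of the longest annotated transcript on a log axis, for 12293 tested genes (gray; 347 lie outside the axes) and the proteasome genes in color, with the median of genes binned by length as a black line. The line falls from 0.16 to -0.42; the core genes (blue) lie on both sides of it and 3 caps (orange) lie well below it.

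The lowest fold changes among the 39 genes were those of PA28 alpha and beta. Of the 5 cap genes, 4 were lower as deposited (80.0%, beside 58.5% of all tested genes) and 1 did not pass the test, with a median of -0.57. With median-ratio scaling 1 was lower and 2 were higher, beside 25.2% and 26.0% of all tested genes. Psme1, PA28 alpha (chromosome 14, 55578123 to 55581529, plus strand), stood at 318.64, 303.66 and 292.84 TPM in rGST and 164.76, 185.47 and 185.96 TPM in rSLURP1 libraries. The treatments were far apart, and the gene fell by 0.77 on the log2 scale (SE 0.058, 95% interval -0.91 to -0.63, adjusted p = 2.7e-05), to 58.6% of its rGST level. It stayed lower under every scale: -0.42 with median-ratio scaling, -0.59 by quantile normalization and -0.47 when length and GC were corrected for, all past the threshold. Among the 39 genes its rank by level went from 5 to 16.

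Psme2, PA28 beta, lies near Psme1 on the same chromosome (55587441 to 55591113, minus strand). It stood at 377.71, 327.27 and 400.07 TPM with rGST and at 210.46, 218.04 and 305.69 TPM with rSLURP1. No library overlapped, but rSLURP1 replicate 3 was far above the other two and close to the lowest rGST library. The log2 fold change was -0.60 (SE 0.14, 95% interval -0.94 to -0.27, adjusted p = 0.0070). It was -0.43 by quantile normalization (adjusted p = 0.035), -0.45 when length and GC were corrected for (adjusted p = 0.034) and -0.25 with median-ratio scaling, which did not pass the test (adjusted p = 0.201). Leaving out each library in turn gave values between -0.77 and -0.51, all past the threshold as deposited.

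Psme2b on chromosome 11 is a near copy of Psme2: the transcripts are 99.4% identical over 794 aligned bases, with 5 mismatches, so the division of reads between them is uncertain. Its levels were 21.63, 19.72 and 24.20 TPM with rGST and 15.69, 11.19 and 16.59 TPM with rSLURP1 (-0.57, SE 0.15, adjusted p = 0.0095; -0.24 with median-ratio scaling, adjusted p = 0.245). The sum of both genes, which depends less on that division, was 390 ± 39.4 TPM with rGST and 259 ± 54.6 TPM with rSLURP1. It is not free of it, because TPM corrects for transcript length (962 bases for Psme2 and 837 for Psme2b).

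The remaining cap genes lay near the core in fold change. Psme3, the nuclear PA28 gamma, overlapped at 64.29 to 71.65 TPM and 57.51 to 66.28 TPM (-0.12, SE 0.067, adjusted p = 0.148; 0.23 with median-ratio scaling). Psme4, PA200, was lower at 42.83 to 45.70 TPM against 46.68 to 50.31 TPM (-0.16, SE 0.053, adjusted p = 0.032) and was higher with median-ratio scaling (0.19, adjusted p = 0.011). Within libraries, core minus caps was 1.19, 1.28 and 1.21 with rGST and 1.59, 1.66 and 1.46 with rSLURP1, a difference of 0.35 on the log2 scale without overlap, 0.26 by quantile normalization and 0.31 when length and GC were corrected for. Core minus Psme3 and Psme4 alone overlapped and differed by 0.040. The summed TPM of core genes was 5.25 ± 0.285 times that of Psme1 and Psme2 with rGST and 7.94 ± 1.11 times with rSLURP1, with the lowest ratio of the treated libraries, 6.67, in replicate 3.

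**Figure D4:**
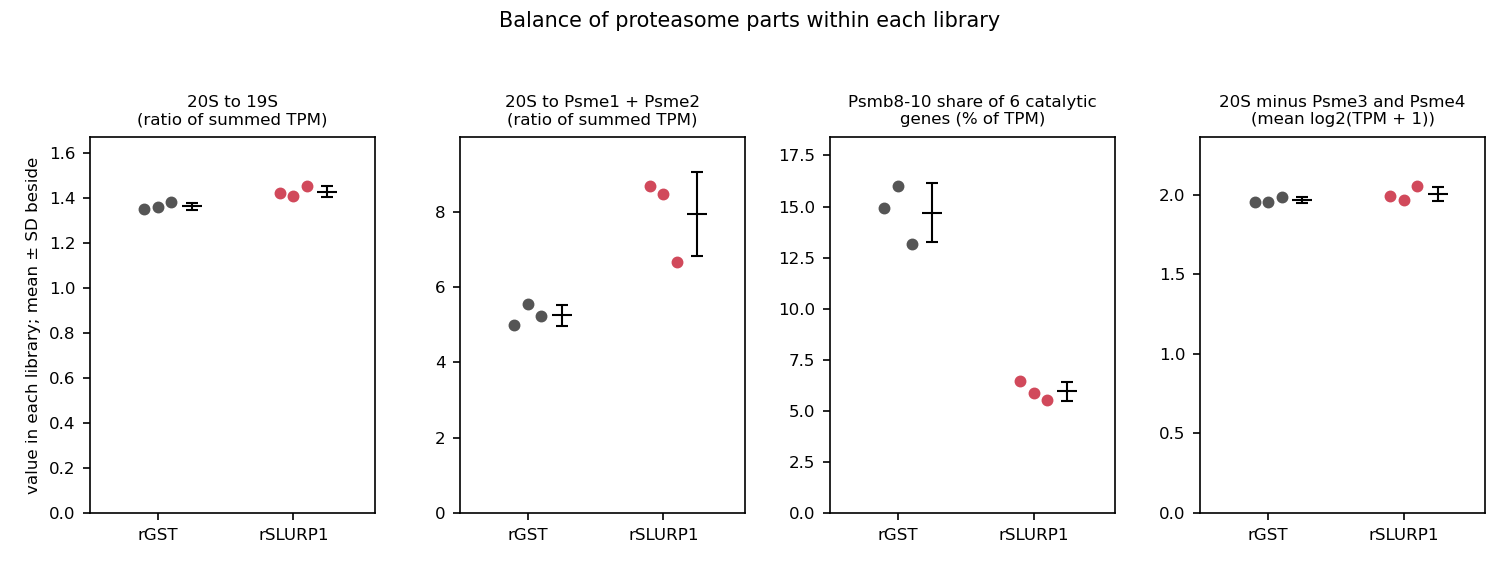
Ratios within each library, with 1 point per library and the mean and SD beside them; every axis starts at 0. The ratio of core to 19S TPM moved little (1.36 to 1.43), the ratio of core to Psme1 and Psme2 went from 5.25 to 7.94, the immunoproteasome share of catalytic TPM went from 14.7% to 5.95%, and core minus Psme3 and Psme4 overlapped.

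The immunoproteasome genes, measured beside the set, moved in the same direction as Psme1 and further. Psmb8 went from 37.77, 37.48 and 29.56 TPM to 4.37, 4.53 and 2.92 TPM and fell by 2.87 (SE 0.16, adjusted p = 6.2e-06; -2.56 with median-ratio scaling). Psmb10 fell by 1.18 (SE 0.075, adjusted p = 1.2e-05), from 107.88 to 125.32 TPM down to 46.44 to 53.44 TPM. Psmb9 was low throughout, at 1.04 to 1.37 TPM with rGST and 0 to 0.12 TPM with rSLURP1 (-1.11, adjusted p = 7.7e-04), and its change is understated on this scale. All 3 stayed lower under each scale. Of the TPM of the 6 catalytic genes, the immunoproteasome genes held 14.9%, 16.0% and 13.1% with rGST and 6.46%, 5.88% and 5.52% with rSLURP1.

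Promoter sequence was available from RefSeq (GRCm38.p6) as windows of 300 bases, 250 before and 50 after a transcript start, for 34 of the 41 genes in 37 windows. The letters GAAA, any 2 bases and GAAA again, the core of the interferon-stimulated response element, were searched on both strands after the values were known. They were present in 10.8% of the proteasome windows and 3.44% of all 32851 windows, in the genes Psme1, Psmd4, Psmb3 and Psmd9. As deposited Psme1 and Psmd9 were lower, and Psmd4 and Psmb3 did not pass the test (Psmb3: log2 fold change 0.11, adjusted p = 0.124). With median-ratio scaling Psme1 was lower and Psmd4 and Psmb3 were higher. The windows of Psme2 did not hold these letters. Of the 3 windows of the immunoproteasome genes Psmb8, Psmb9 and Psmb10, 0 held them. The sites of Psme1 and 2 of the other genes are shown because they put the same letters beside different fold changes, with the match in capitals, each on the strand of its gene. These 3 matches lie on the opposite strand, so the capitals read TTTC, any 2 bases and TTTC. The Psme1 match begins 9 bases downstream of the start, the Psmd4 match 80 bases upstream and the Psmb3 match 163 bases upstream. With their flanks, the stretches shown cover chr14:55578493-55578522, chr3:95042675-95042704 on the minus strand and chr11:97703261-97703290, in that order.
Psme1: cgagctgtgcTTTCGCTTTCccttcccgct
Psmd4: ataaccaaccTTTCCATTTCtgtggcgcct
Psmb3: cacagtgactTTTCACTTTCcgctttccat

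The core of the antioxidant response element, TGACNNNGC, which NRF1 and related factors bind, was present in 16.2% of the proteasome windows and 12.4% of all windows. It was found in the genes Psmb5, Psmb6, Psmc6, Psmd9, Psmd12 and Psme4. Their fold changes as deposited ran from -0.39 (Psmd9) to 0.12 (Psmb5). The CCAAT box, in the letters CCAAT, was in 35.1% of the proteasome windows and 37.4% of all windows. By gene it was in 41.1% of all genes and in 13 of the 34 proteasome genes (38.2%). These were 5 of 7 genes of the alpha ring, 2 of 5 of the beta ring, 2 of 5 ATPases, 2 of 9 non-ATPases, 1 of 3 assembly chaperones and 1 of 5 caps. The TGACNNNGC sites of Psme4 and Psmd9 lie 7 and 31 bases upstream of the start. Those of Psmb5 and Psmb6 are shown because these genes carry active sites of the core. They begin 47 and 9 bases upstream. With their flanks, the stretches shown cover chr14:54618024-54618052 on the minus strand and chr11:70525338-70525366.
Psmb5: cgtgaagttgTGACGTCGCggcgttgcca
Psmb6: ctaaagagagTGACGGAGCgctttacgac

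Genes that build, supply and control the proteasome were read from 6 lists besides the immunoproteasome genes. Nfe2l1 (NRF1) was higher in every rSLURP1 library, at 316.58, 279.00 and 247.30 TPM against 221.54, 196.52 and 195.93 TPM. It rose by 0.45 (SE 0.092, adjusted p = 0.0034), by 0.80 with median-ratio scaling and by 0.64 with quantile normalization. Its list of 7 genes includes the enzymes that release and process it and the related factor gene Nfe2l2 (NRF2). Of these 7, 4 were lower and 2 higher as deposited, beside 58.5% and 8.66% of all tested genes. Median-ratio scaling gave 2 lower and 3 higher, beside 25.2% and 26.0%. Ngly1, the glycanase that removes the sugars of NRF1, was the lowest, at 13.43 to 14.04 TPM against 8.37 to 8.72 TPM. Its log2 fold change was -0.63 (adjusted p = 1.5e-04) and -0.30 with median-ratio scaling. Nfe2l2 fell from 92.85 to 96.56 TPM with rGST to 62.14 to 67.51 TPM with rSLURP1 (-0.53, adjusted p = 5.6e-05 in limma). It was also lower with median-ratio scaling (-0.18, adjusted p = 0.0084), by quantile normalization (-0.25) and when length and GC were corrected for (-0.19). Of the 6 genes with the TGACNNNGC core, 3 were lower as deposited (Psmd9, Psmd12 and Psme4), beside 58.5% of all tested genes. The other 3 did not pass the test. With median-ratio scaling 4 were higher (Psmb5, Psmb6, Psmc6 and Psme4), and Psmd9 and Psmd12 did not pass the test. On that scale 59.0% of the 39 proteasome genes and 26.0% of all tested genes were higher.

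Of the 5 genes for chaperones that assemble the 20S core, 2 were lower as deposited, beside 58.5% of all tested genes. Median-ratio scaling gave 1 lower and 4 higher, beside 25.2% and 26.0% of all tested genes. Psmg2 went from 35.81, 37.39 and 30.20 TPM to 21.30, 23.57 and 20.03 TPM (-0.65, SE 0.095, adjusted p = 6.9e-04; -0.30 with median-ratio scaling, adjusted p = 0.025). Its partner Psmg1 was at 34.52 to 35.69 TPM and 36.59 to 39.53 TPM, without overlap (0.10, adjusted p = 0.132). Psmg1 was higher with median-ratio scaling (0.44, adjusted p = 1.6e-04), by quantile normalization (0.45) and when length and GC were corrected for (0.26). Pomp, the maturation factor, was lower at 134.40 to 151.82 TPM against 158.79 to 163.34 TPM (-0.16, adjusted p = 0.029; 0.20 with median-ratio scaling). The 19S subunit genes with other names shifted little as deposited. The ubiquitin receptor gene Adrm1 was lower at -0.14 (adjusted p = 0.046), and Sem1 at -0.05 did not pass the test (adjusted p = 0.314). With median-ratio scaling both were higher, Adrm1 at 0.21 (adjusted p = 0.0078) and Sem1 at 0.31 (adjusted p = 4.1e-04).

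Of 10 tested genes for factors that bind the proteasome, 6 were lower (60.0%, beside 58.5% of all tested genes) and 1 was higher as deposited. Median-ratio scaling gave 1 lower and 5 higher, beside 25.2% and 26.0% of all tested genes. Both extremes were shuttle factors that bring ubiquitinated proteins to the proteasome. Ubqln2 fell by 0.75 (41.89 to 44.64 TPM against 24.16 to 26.13 TPM; adjusted p = 2.2e-05) and was also lower with median-ratio scaling (-0.41). Rad23b rose by 0.15 (105.52 to 108.11 TPM against 112.69 to 122.75 TPM, adjusted p = 0.018) and by 0.50 with median-ratio scaling. The inhibitor gene Psmf1 did not pass the test (-0.16, SE 0.11, adjusted p = 0.254). Of the 6 ubiquitin and E1 genes, 2 were lower (33.3%) and 2 higher as deposited, beside 58.5% and 8.66% of all tested genes. Median-ratio scaling gave 0 lower and 4 higher, beside 25.2% and 26.0%. Quantile normalization gave 3 lower and 1 higher, beside 23.6% and 25.3%. Rps27a, a ubiquitin fused to a ribosomal protein, rose by 0.53 (adjusted p = 2.7e-05) and Uba6, an E1 enzyme, fell by 0.43 (adjusted p = 0.0016) but not with median-ratio scaling (-0.10, adjusted p = 0.304). The segregase p97 (Vcp), which extracts proteins for the proteasome, and its cofactors had 7 of 8 genes lower, from -0.51 for Nsfl1c to -0.10 for Faf1, which did not pass the test (adjusted p = 0.192). The 87.5% lower stands beside 58.5% of all tested genes. With median-ratio scaling 2 of the 8 were lower and 3 were higher, beside 25.2% and 26.0% of all tested genes.

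**Figure D5:**
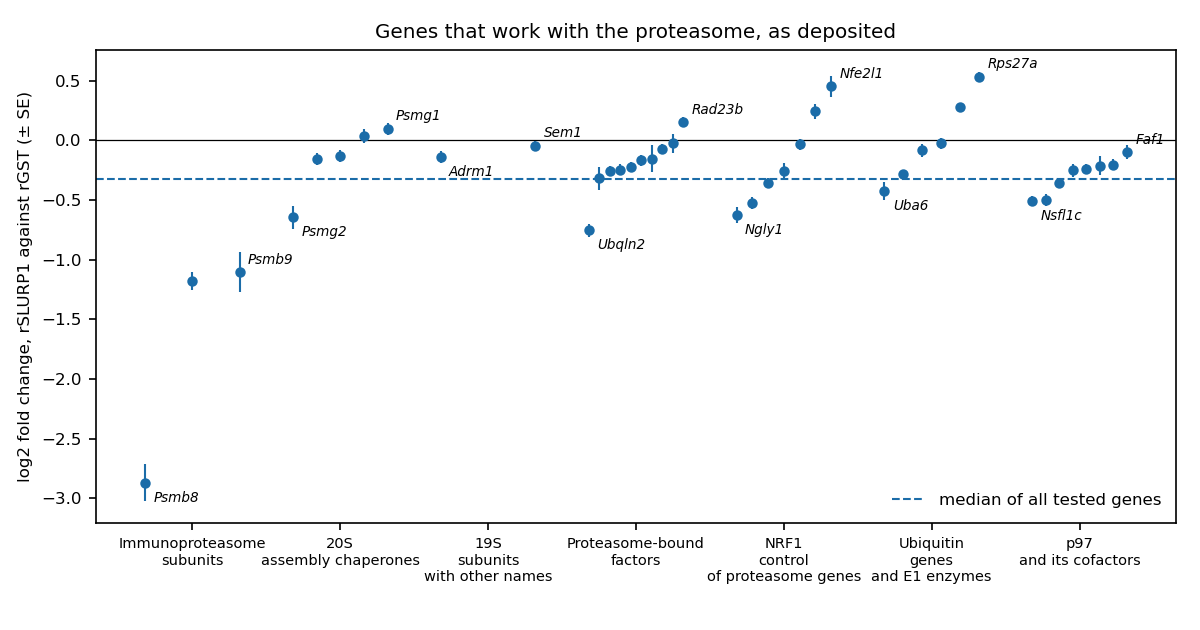
Log2 fold change as deposited, with its standard error, for the tested genes of 7 lists that surround the proteasome, with the lowest and highest gene of each list named and the median of all tested genes as a dashed line. The immunoproteasome genes lie lowest, Psmg2 and Ubqln2 lie below their lists, and Nfe2l1 and Rps27a lie above theirs.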

How the data were processed

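RNAseq of D2A1 spheroids was analysed in 3 rGST and 3 rSLURP1 libraries, grouped by the labels. Libraries of sorted cells were not analysed here. Reads were trimmed by the authors and mapped to the mm10 genome with STAR; RSEM gave the TPM they deposited, 54146 genes by 6 libraries. Per the submitters' processing notes the versions were Cutadapt 1.18, STAR 2.5.2b and RSEM 1.3.3. TPM keeps no depth, so precision rests on the 3 libraries.

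The deposited TPM were taken to log2(TPM + 1), and 12301 genes that reached 1 TPM in at least 3 libraries were fitted without a block in limma 3.58.1 under R 4.3.3 (eBayes, trend on). Calls required a Benjamini-Hochberg adjusted p-value of 0.05 or less; a fold of 2 was counted separately. Fold changes understate the change of low genes. The test was checked on simulated data with independent noise, few changed genes balanced in direction, and no shift over whole libraries. These data differ in that respect, so the check does not bear on the choice of scale. Coordinates, lengths and GC content came from GENCODE M21 (GRCm38), in which 54079 identifiers matched without their version.

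The members, gene lists and motifs were chosen with earlier results of these data known. Genes were named by rule: catalytic, receptor and deubiquitinase subunits, Psma3, all caps, failed or false members, and the highest and lowest fold change of each list, with some regulators. Psmb3, the other promoter matches and Nfe2l2 were named after their values were seen. The alternatives changed the pseudocount (0.1), the filter, the scaling (median-ratio, quantile), the trend or the block, removed mitochondrial genes or 1 library at a time, or corrected for transcript length and GC content by loess with a span of 0.3.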

Additional observations from a re-analysis of the deposited data

How the results depend on the processing

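The count of proteasome genes called lower, 21 as deposited, was 2 by median-ratio scaling, 5 by quantile normalization, 6 when transcript length and GC were corrected for and 3 when the replicate block was added to that. The count called higher, 2 as deposited, was 23, 13, 21 and 20 in the same order, and 5 without mitochondrial genes. Over all 12301 tested genes, 7200 were called lower as deposited, and 3094, 2905, 2695 and 2472 in the same order. The counts called higher over all tested genes were 1065 as deposited, then 3198, 3111, 3320 and 3095. Without mitochondrial genes 1142 of 12286 were higher. Leaving out 1 library gave 17 to 26 lower and 2 to 4 higher proteasome genes, with 4 higher without rGST replicate 3 and without rSLURP1 replicate 3. Over all tested genes it gave 6605 to 6999 lower and 906 to 1020 higher. No proteasome gene reached 2-fold under any alternative run. The median over the 39 genes turned from -0.14 to 0.21, 0.058, 0.16 and 0.16 under the 4 settings named first, and ran from -0.17 to -0.12 with a library left out. Core minus 19S, 0.055, was 0.016 by quantile normalization, -0.029 when length and GC were corrected for, block or no block, and 0.041 to 0.066 with a library left out. Core minus caps, 0.35, was 0.26 by quantile normalization and 0.30 to 0.40 with a library left out. The cause of these shifts was not tested beyond the scalings themselves.

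The replicate block alone left 21 lower and 2 higher genes, a median of -0.14 and core minus 19S at 0.055. Libraries with the same number did not deviate together (correlations of -0.056, -0.034 and -0.061). With 3 libraries per treatment these values cannot show whether the libraries were paired.

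For the 40 genes that the naming rule gives, 503 of 639 values under the alternatives had the same sign and call, and 64 changed sign. When length and GC were corrected for, block or no block, the sign changed for Adrm1 (0.31), Faf1 (0.32), Pomp (0.25), Psma3 (0.25), Psmb6 (0.050), Psmb7 (0.21), Psmd1 (0.025), Psmd10 (0.22), Psmd2 (0.22), Psmd4 (0.23), Psme3 (0.24), Psme4 (0.26), Psmf1 (0.25) and Sem1 (0.26). Under median-ratio scaling it did so for Adrm1 (0.21), Faf1 (0.24), Pomp (0.20), Psma3 (0.26), Psma4 (0.057), Psmb4 (0.075), Psmb6 (0.26), Psmb7 (0.23), Psmd1 (0.0064), Psmd10 (0.35), Psmd2 (0.20), Psmd4 (0.26), Psme3 (0.23), Psme4 (0.19), Psmf1 (0.19) and Sem1 (0.31). Quantile normalization did so for Adrm1 (0.080), Faf1 (0.30), Pomp (0.057), Psma3 (0.086), Psmb6 (0.054), Psmb7 (0.042), Psmd10 (0.29), Psmd2 (0.026), Psmd4 (0.045), Psme3 (0.17), Psme4 (0.18), Psmf1 (0.23) and Sem1 (0.16). Psmd10 was 0.023 without mitochondrial genes and -0.022 to 0.010 with a library left out. With a library left out, Psmc5 lay between -0.024 and 0.062 and Psmc3ip was as low as -0.070. Among genes named for other reasons, Psma7 was 0.21 and Psmd12 0.029 with median-ratio scaling, and Psma7 was 0.096 and Vcp 0.031 when length and GC were corrected for.

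Some small calls as deposited rested on single libraries. The call was lost for Psmb7 without rGST or rSLURP1 replicate 3, for Psmd2 without replicates 1 or 3 of either treatment, for Psme4 without rGST replicates 1 or 2 or rSLURP1 replicates 1 or 3, for Pomp without any rGST replicate or rSLURP1 replicate 1, for Adrm1 without rGST replicates 2 or 3 or rSLURP1 replicates 1 or 3, and for Rad23b without rGST replicate 3 or rSLURP1 replicates 1 or 2. The highest adjusted p was 0.057, 0.075, 0.10, 0.082, 0.14 and 0.056 in that order. Without rSLURP1 replicate 2, Psma3 (adjusted p = 0.048) and Psmd4 (0.012) passed. Without the eBayes trend, Psmb7, Psmd2, Psme4, Pomp and Adrm1 did not pass (adjusted p = 0.053 to 0.094).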
